A study of Homo sapiens with 5 samples.

Results

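The miR-23-27-24 clusters are paralogous miRNA gene clusters, each of which gives a miR-23, a miR-27 and a miR-24 from a single primary transcript. They were read here by 5 probes, hsa-miR-23a, hsa-miR-23b, hsa-miR-27a, hsa-miR-27b and hsa-miR-24 (hsa, for human, is left out below), which were taken by name from the 734 miRNA probes of the NanoString nCounter Human v2 panel, a hybridisation assay that counts reporter barcodes without amplification. The samples were lanes of total RNA from Caco2 cells, an established line from a human colorectal adenocarcinoma whose cells polarise in culture. The cells had been infected and selected with a non-target shRNA (NT, n = 2, replicates 1 and 3) or with an shRNA targeting PLEKHA7, which belongs to the adherens junctions of epithelia (shPLEKHA7, n = 3, replicates 1, 2 and 3), and the study asked what PLEKHA7 depletion does to miRNA levels. The labels describe independent infection sets and a single targeting shRNA, and they name no clone and no further treatment. The source field of 2 shPLEKHA7 samples carries another PLEKHA number, and the sample titles were followed. The panel has no PLEKHA7 probe, so the knockdown itself was not analysed here.

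A miRNA pairs with target mRNAs mainly through its seed, bases 2 to 8 from the 5′ end, and lowers their translation and stability. The miR-23 and miR-27 sequences of the paralogous clusters carry identical seeds, and both clusters give the same mature miR-24. In other tissues miR-23 is known as a repressor of mitochondrial glutaminase, miR-27 as a brake on adipogenesis and lipid metabolism, and miR-24 as a repressor of cell cycle genes. Processing of a shared transcript does not oblige its products to be equal in amount, since Drosha cutting, strand choice and decay act on each hairpin or mature miRNA.

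The target sequences of the deposited table, written as RNA with the seed in capitals, are given in cluster order to show which bases separate the probes.
miR-23a: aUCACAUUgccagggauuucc
miR-27a: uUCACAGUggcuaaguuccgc
miR-23b: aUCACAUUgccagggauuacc
miR-27b: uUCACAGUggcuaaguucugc
miR-24: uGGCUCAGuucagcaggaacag

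Counted from 1 at the 5′ end, miR-23a and miR-23b differ by U19A and miR-27a and miR-27b by C19U, which is 1 base of 21 in each pair. The miR-23 and miR-27 seeds are related, with U7G as the change within bases 2 to 8. Each target matched a mature miRNA of RefSeq (GRCh38.p14), exactly for 4 of the 5. The miR-23b target of 21 bases is the 5′ part of a RefSeq mature sequence of 23 bases. On the minus strand of chromosome 19, in the transcribed order MIR23A, MIR27A, MIR24-2, the mature sequences lie at chr19:13836595-13836615 (miR-23a), chr19:13836447-13836467 (miR-27a) and chr19:13836289-13836310 (miR-24). The 3 hairpins span 373 bases within the non-coding host gene MIR23AHG. On the plus strand of chromosome 9, in the order MIR23B, MIR27B, MIR24-1, they lie at chr9:95085265-95085287 (miR-23b), chr9:95085505-95085525 (miR-27b) and chr9:95086064-95086085 (miR-24). Those 3 hairpins span 881 bases inside the bounds of the protein-coding gene AOPEP.

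Both miR-24 hairpins are shown because a single probe reads their product, with the mature miR-24 in capitals.
MIR24-1: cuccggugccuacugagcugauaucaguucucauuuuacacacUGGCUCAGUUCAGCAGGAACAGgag
MIR24-2: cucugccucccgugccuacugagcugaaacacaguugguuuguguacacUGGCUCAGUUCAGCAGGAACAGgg

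The capitals are the same in both, so a miR-24 count is the sum over both loci and cannot be divided between chromosomes 9 and 19. The miR-23 and miR-27 probes are assigned to one cluster each by the single base at position 19. The control probes include neither sequence of a pair, so how fully the probes separate them was not tested. None of the 6 passenger arms of these hairpins was matched to a panel probe.

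Lanes held 32138 to 58298 miRNA counts. The limit of detection, the mean plus 2 SD of the 8 negative-control probes of a lane, was 11.0 to 24.5 counts. miR-24, miR-23a and miR-23b were above it in all 5 lanes and miR-27a in 3, while miR-27b was above it in none. The 204 probes above it in at least 2 lanes were tested, 4 of the 5 members among them. The epithelial miR-200 family was above the limit in all lanes (5 of 5 probes), as were 2 of 3 intestinal markers. Of 6 blood markers 2 (miR-142-5p and miR-223) were above it in all lanes and 3 below it in every lane. Of 6 stroma markers 2 (miR-126 and miR-214) were above it in all lanes and 3 below it in every lane. Summed normalized counts ran from 1639 to 1684 in NT and from 1431 to 1515 in shPLEKHA7 lanes for the epithelial list, from 542 to 575 and from 503 to 736 for the intestinal list, from 124 to 127 and from 118 to 143 for the blood list, and from 109 to 119 and from 103 to 128 for the stroma list. Of these markers only the intestinal miR-215 was called (log2 1.22, edgeR adjusted p = 0.048), from raw counts of 11 and 17 in NT, both below the limit.

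miR-24, miR-23a and miR-23b were lower in shPLEKHA7 than in NT cells, each at 55% to 60% of its NT level. miR-27a had a similar low mean count in both groups, but its NT lanes differed too widely to tell no change from a fall like theirs. miR-27b gave no measurable signal. Of the 5 probes 3 were called lower and 0 higher by the edgeR quasi-likelihood test (adjusted p under 0.05), against 3.92% of all tested probes called lower and 2.45% called higher. All 4 tested members had a log2 fold change below 0, as did 43.6% of tested probes, but miR-27a was at -0.12 with an SE of 0.36. The median of the 4 was log2 -0.78, beside 0.06 over all 204. In these bulk lanes fewer cells that hold a miRNA and less of it per cell cannot be told apart.

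miR-24, the product of both clusters, had raw counts of 250 and 351 in NT replicates 1 and 3 and of 186, 126 and 255 in shPLEKHA7 replicates 1, 2 and 3. Scaled for lane depth by TMM, a trimmed mean over probes, these were 317 and 330 normalized counts against 170, 173 and 193. The raw counts of the groups overlap and the normalized counts do not. The fall from 323 ± 9.25 (SD, n = 2) to 179 ± 12.5 (SD, n = 3) had a log2 fold change of -0.85 (SE 0.13, edgeR adjusted p = 0.0186). It had the lowest p of the 204 tested probes and the fifth lowest fold change.

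miR-23a, from the chromosome 19 cluster, had 192 and 288 raw counts in NT and 167, 118 and 188 in shPLEKHA7 lanes. Normalized, these were 243 and 271 against 152, 162 and 142. The NT lanes lie close together, and every shPLEKHA7 lane is below both. The means were 257 ± 19.4 (SD, n = 2) and 152 ± 9.98 (SD, n = 3), a log2 fold change of -0.76 (SE 0.14, edgeR adjusted p = 0.0199).

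miR-23b, its chromosome 9 paralog with the same seed, had 191 and 170 raw counts in NT and 128, 89 and 142 in shPLEKHA7 lanes. The normalized counts were 242 and 160 against 117, 122 and 107. Here the NT lanes differ from each other by more than the shPLEKHA7 lanes do, and the lower one, replicate 3, still lies above all shPLEKHA7 lanes. The log2 fold change was -0.79 (SE 0.19, edgeR adjusted p = 0.0399), from 201 ± 58.2 (SD, n = 2) to 115 ± 7.53 (SD, n = 3).

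miR-27a, which lies between miR-23a and miR-24 on chromosome 19, had raw counts of 10 and 35 in NT and of 22, 16 and 31 in shPLEKHA7 lanes. The count of 10 was below the limit of its lane (13.4), as was the 22 of shPLEKHA7 replicate 1 (limit 24.5). Normalized, the NT lanes stood at 12.7 and 32.9 and enclosed the shPLEKHA7 lanes at 20.1, 22.0 and 23.4. The log2 fold change of -0.12 (SE 0.36, edgeR adjusted p = 0.882) turned to 0.83 without NT replicate 3 and to -0.58 without NT replicate 1, so these lanes give miR-27a no direction. From counting alone, the exact Poisson 95% interval is 4.80 to 18.4 for the 10 counts and 24.4 to 48.7 for the 35 counts of the NT lanes.

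miR-27b, its chromosome 9 paralog, was listed at a raw count of 1 in all 5 lanes. That is at or below the lowest negative control of each lane, which ran from 1 to 5. The same value in every lane was shared by 12 miRNA probes, including let-7e and miR-132, whereas a lane held 2 to 24 other probes at 1 of 722. Whether this 1 is a count or a placeholder is not given in the sources used here. No level and no fold can be given for miR-27b, and a count of 1 does not show that the miRNA was absent.

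**Figure D1:**
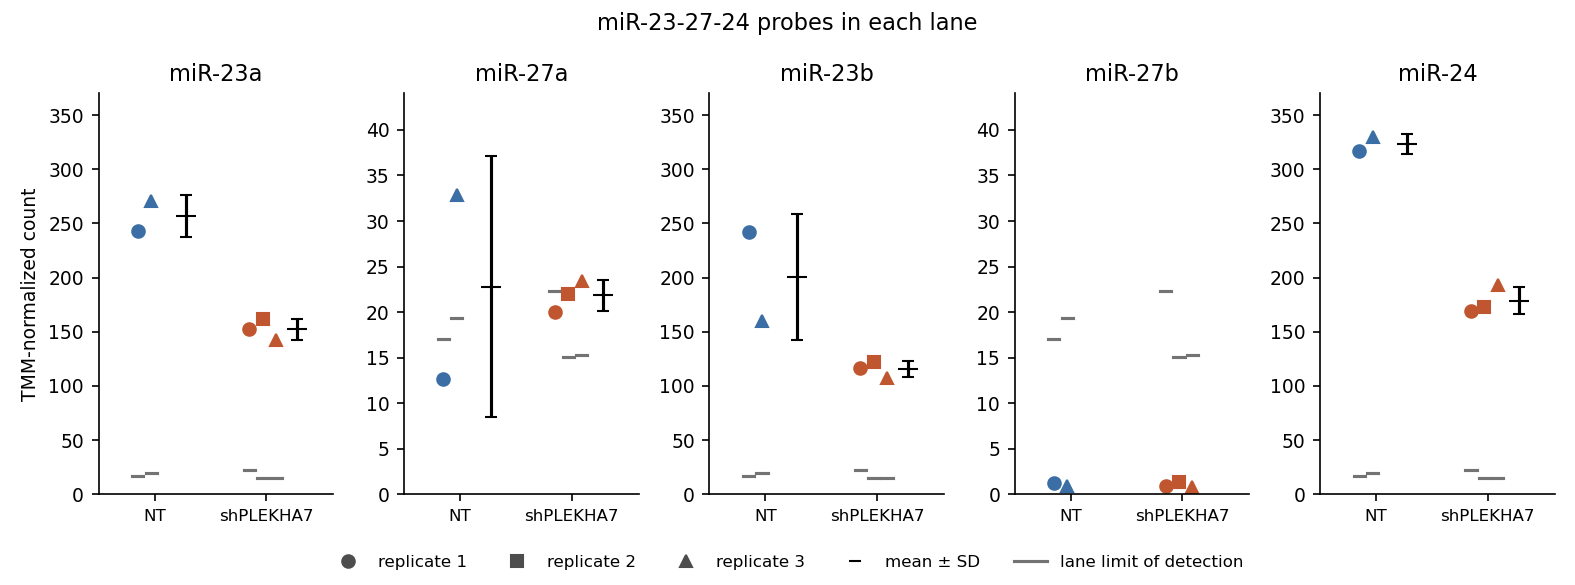
TMM-normalized counts of the 5 probes (y axis, different scales) in each NT and shPLEKHA7 lane, with group mean ± SD beside the points and each lane's limit of detection as a grey dash. The shPLEKHA7 lanes of miR-23a, miR-23b and miR-24 lie below both NT lanes, the NT lanes of miR-27a enclose the shPLEKHA7 lanes, and miR-27b is near 0 throughout, where no mean is drawn.

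As shares of all miRNA counts, miR-24 took 0.715% and 0.697% of the NT lanes and 0.388%, 0.392% and 0.437% of the shPLEKHA7 lanes. Its rank by raw count among the 734 probes was 27 and 26 in NT and 30, 30 and 31 in shPLEKHA7 lanes. miR-23a ranked 30 and 29 in NT and 33, 34 and 34 in shPLEKHA7 lanes, and miR-23b 31 and 37 against 40, 39 and 45. All 5 probes together held 1.84% and 1.68% of the miRNA count in NT and 1.05%, 1.09% and 1.06% in shPLEKHA7 lanes. This summed share, in which miR-24 and the miR-23 probes dominate, differed less within a group than between the groups.

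A ratio of 2 members within a lane does not depend on how lanes are scaled. The ratio of miR-24 to miR-23a counts was 1.30 and 1.22 in NT and 1.11, 1.07 and 1.36 in shPLEKHA7 lanes. The groups overlap, with a mean difference of log2 -0.10 (2-sided exact permutation p = 0.5, adjusted over 3 pairs 0.8). The ratio of miR-24 to miR-23b was 1.31 and 2.06 in NT and 1.45, 1.42 and 1.80 in shPLEKHA7 lanes (difference log2 -0.09, exact permutation p = 0.7, adjusted 0.8). The ratio of miR-23a to miR-23b, which sets one cluster against the other, was 1.01 and 1.69 in NT and 1.30, 1.33 and 1.32 in shPLEKHA7 lanes (difference log2 0.01, exact permutation p = 0.8, adjusted 0.8). With 2 lanes against 3 the smallest possible p is 0.1, so none of these tests could have passed 0.05, and equal loss of the 3 members is not shown by them.

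The spread of the last ratio sat in the NT lanes. miR-23a made up 50.1% of the joint miR-23a and miR-23b count in NT replicate 1 (exact Clopper-Pearson 95% interval 45.0% to 55.3%, 383 counts) and 62.9% in NT replicate 3 (58.3% to 67.3%, 458 counts). These intervals, which cover counting error only, do not overlap. In shPLEKHA7 replicates 1, 2 and 3 the share was 56.6%, 57.0% and 57.0%, between the NT values. The balance of miR-23a and miR-23b thus differed between the NT lanes by more than counting error. This was not particular to the pair, as the tested probes together had a chi-square per degree of freedom of 5.12 between the NT lanes. Between shPLEKHA7 lanes it was 1.80 to 4.34. The size of the miR-23b fall depended on the NT lane used. Its log2 fold change was -0.47 (edgeR adjusted p = 0.21) without NT replicate 1 and -1.03 (edgeR adjusted p = 0.0627) without NT replicate 3.

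The ratio of miR-24 to miR-27a was 25.0 and 10.03 in NT and 8.45, 7.88 and 8.23 in shPLEKHA7 lanes. Every shPLEKHA7 value is lower than both NT values, and NT replicate 1 stands well above the rest. miR-27a was 3.85% of the joint miR-27a and miR-24 count there (exact Clopper-Pearson 95% interval 1.86% to 6.96%) and 9.07% in NT replicate 3 (6.40% to 12.4%), against 10.6%, 11.3% and 10.8% in shPLEKHA7 lanes, whose intervals all include the value of NT replicate 3. No test was made on it, because miR-27a was below the limit in 2 lanes. After the mean negative control was subtracted the ratio was 62.9 and 12.5 in NT and 16.1, 10.6 and 11.0 in shPLEKHA7 lanes, and the groups then overlapped.

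**Figure D2:**
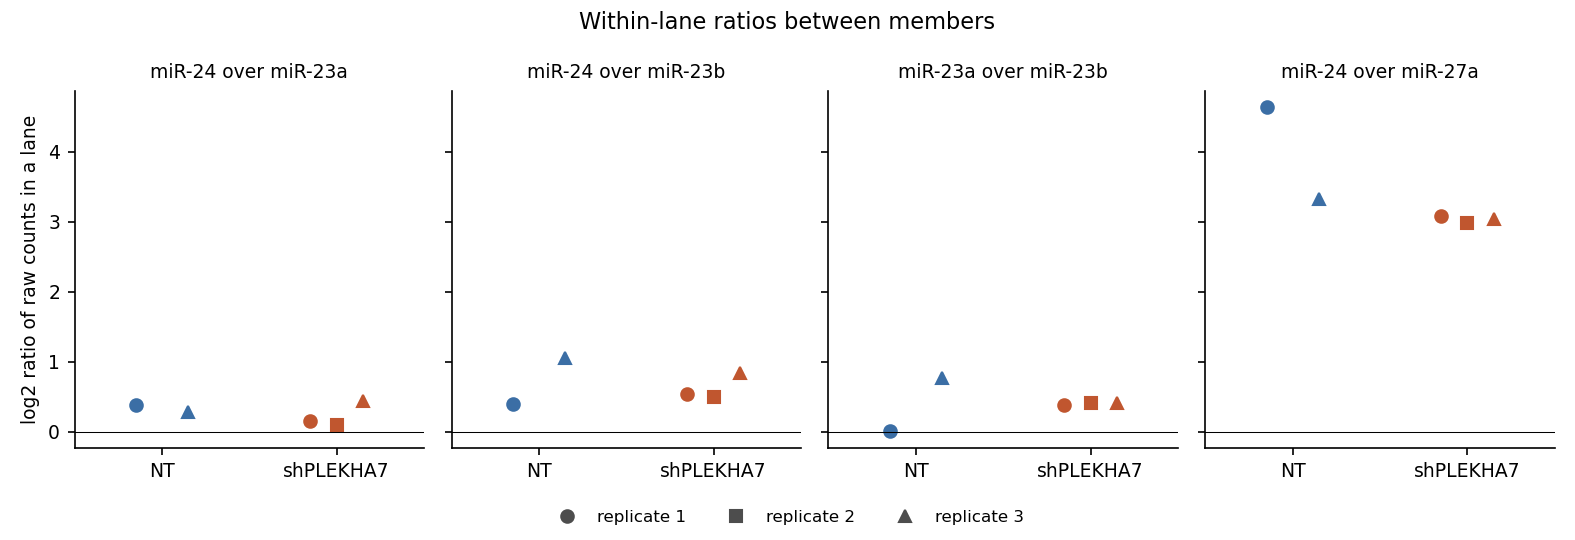
log2 ratio of raw counts of 2 members in the same lane (y axis), by group, with a symbol per replicate number. The 3 ratios among miR-24, miR-23a and miR-23b overlap between groups, and of these 3 the ones with miR-23b scatter most between the NT lanes. The ratio of miR-24 over miR-27a scatters more between the NT lanes and is highest in NT replicate 1 at log2 4.64.

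Against the other probes, miR-23b and miR-23a had the seventh and eighth lowest fold change of 204. Groups that do not overlap were common, with 22.1% of tested probes lower in every shPLEKHA7 lane and 26.0% higher in every one, so the separation of miR-24, miR-23a and miR-23b is not in itself unusual here. In the test the 3 were 3 of the 8 probes called lower, where 5 were called higher.

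**Figure D3:**
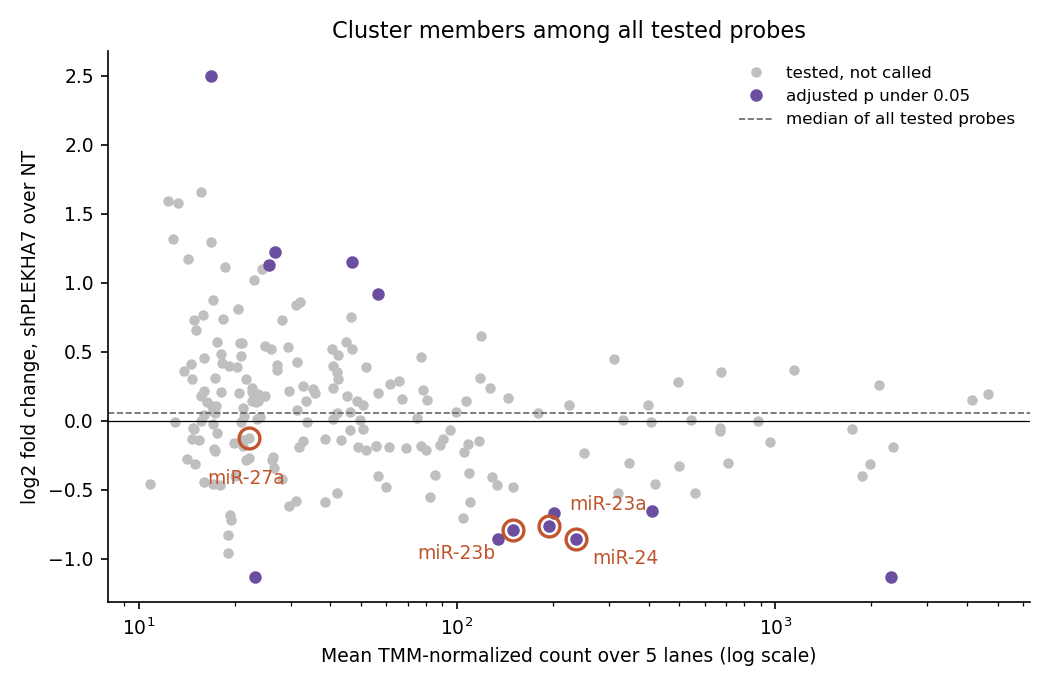
log2 fold change (y axis) against mean TMM-normalized count over 5 lanes (x axis, log scale) for the 204 tested probes, with the 4 tested members circled and called probes in purple. miR-24, miR-23a and miR-23b lie near log2 -0.8 among probes of over 100 counts, and miR-27a lies at -0.12 among the scatter of low counts.

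Among the 121 human probes above the limit in all lanes, those most like miR-24 across the 5 lanes were sought by the root mean square difference of log2 normalized counts, each centred on its own mean. The nearest outside the clusters were let-7g (difference 0.13), miR-30a (0.14) and miR-29a (0.16), where the median probe was at 0.49. miR-23a was at 0.13, the second nearest of all 120, and miR-23b at 0.24, the fifteenth. let-7g, of the let-7 family of growth-restraining miRNAs, had 549 and 499 normalized counts in NT and 332, 301 and 362 in shPLEKHA7 lanes. For miR-23a the nearest were miR-183 (0.13), let-7i (0.13) and miR-24 (0.13), and for miR-23b let-7b (0.14), miR-29a (0.15) and let-7d (0.15). miR-23b was thus nearer to probes that were, like it, highest in NT replicate 1 than to miR-23a (0.24), which was highest in NT replicate 3. These distances include the group difference and describe 5 lanes, with no test.

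**Figure D4:**
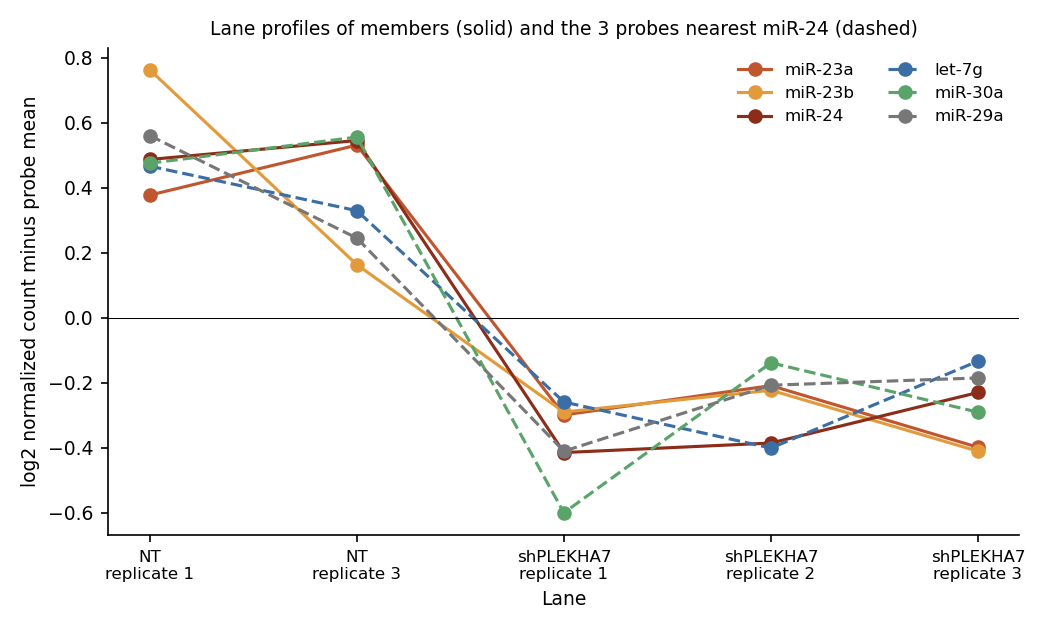
log2 normalized count minus the probe's own mean (y axis) in each lane (x axis) for miR-23a, miR-23b and miR-24 (solid) and for let-7g, miR-30a and miR-29a (dashed); lines join the values of a probe and imply no order of lanes. The 6 probes are above their mean in both NT lanes and below it in the 3 shPLEKHA7 lanes, with miR-23b higher in NT replicate 1 and miR-23a in NT replicate 3. The dashed probes were picked for likeness to miR-24 in these same lanes, so their shared pattern is no separate evidence.

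Of miRNAs related by seed or position few were on the panel. No human probe outside the members had the same bases 2 to 8. miR-128, a neuronal miRNA whose bases 2 to 7 equal bases 3 to 8 of miR-27 (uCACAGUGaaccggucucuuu, bases 2 to 8 in capitals), had raw counts of 21 and 24 in NT and of 23, 13 and 27 in shPLEKHA7 lanes (log2 -0.29, SE 0.26, edgeR adjusted p = 0.599). miR-181c and miR-181d, whose genes lie near the chromosome 19 cluster, gave little signal. miR-181c had 9 to 15 raw counts and was below the limit in all lanes. The joint probe for miR-181b and miR-181d had 9 and 21 in NT and 26, 9 and 17 in shPLEKHA7 lanes, above the limit in 2 of 5, at log2 0.04 (SE 0.43, edgeR adjusted p = 0.989). Of these 3 probes 2 were tested and 0 called by edgeR, and 0 had an unadjusted p under 0.05. With 3.92% of tested probes called lower and 2.45% higher, 0 of 2 is near the background.

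Spike-in totals separated the groups, if narrowly (10656 against 10670 at the closest), whereas total miRNA counts and limits of detection overlapped. The positive-control spike-ins summed to 7686 and 10656 counts in NT and to 14017, 10670 and 14239 in shPLEKHA7 lanes, without overlap. Per 1000 spike-in counts, miR-24 was at 32.5 and 32.9 in NT and at 13.3, 11.8 and 17.9 in shPLEKHA7 lanes, a larger difference than under TMM. Scaled to spike-ins, miR-24, miR-23b and miR-23a had log2 fold changes of -1.19, -1.15 and -1.11 (edgeR adjusted p = 0.000694, 0.00103 and 0.00139), where 14.2% of tested probes were called lower and the median of all tested probes was -0.27. The numbers that end the deposited lane names put both NT lanes before all shPLEKHA7 lanes, so lane order and group cannot be told apart.

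The 3 calls rested on both NT lanes, as did nearly all calls of other probes. Without NT replicate 1 miR-24 was at log2 -0.88 and miR-23a at -0.84, and without NT replicate 3 they were at -0.78 and -0.64. Each time a lone NT lane was assumed to vary like the shPLEKHA7 lanes. Without shPLEKHA7 replicate 3 miR-23b was no longer called (log2 -0.73, edgeR adjusted p = 0.0802). Under the deposited housekeeping scaling the fold changes were -0.92, -0.84 and -0.85 for miR-24, miR-23a and miR-23b, and none of the 3 passed (edgeR adjusted p = 0.0842, 0.107 and 0.103), where 0.98% of tested probes were called lower.

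**Figure D5:**
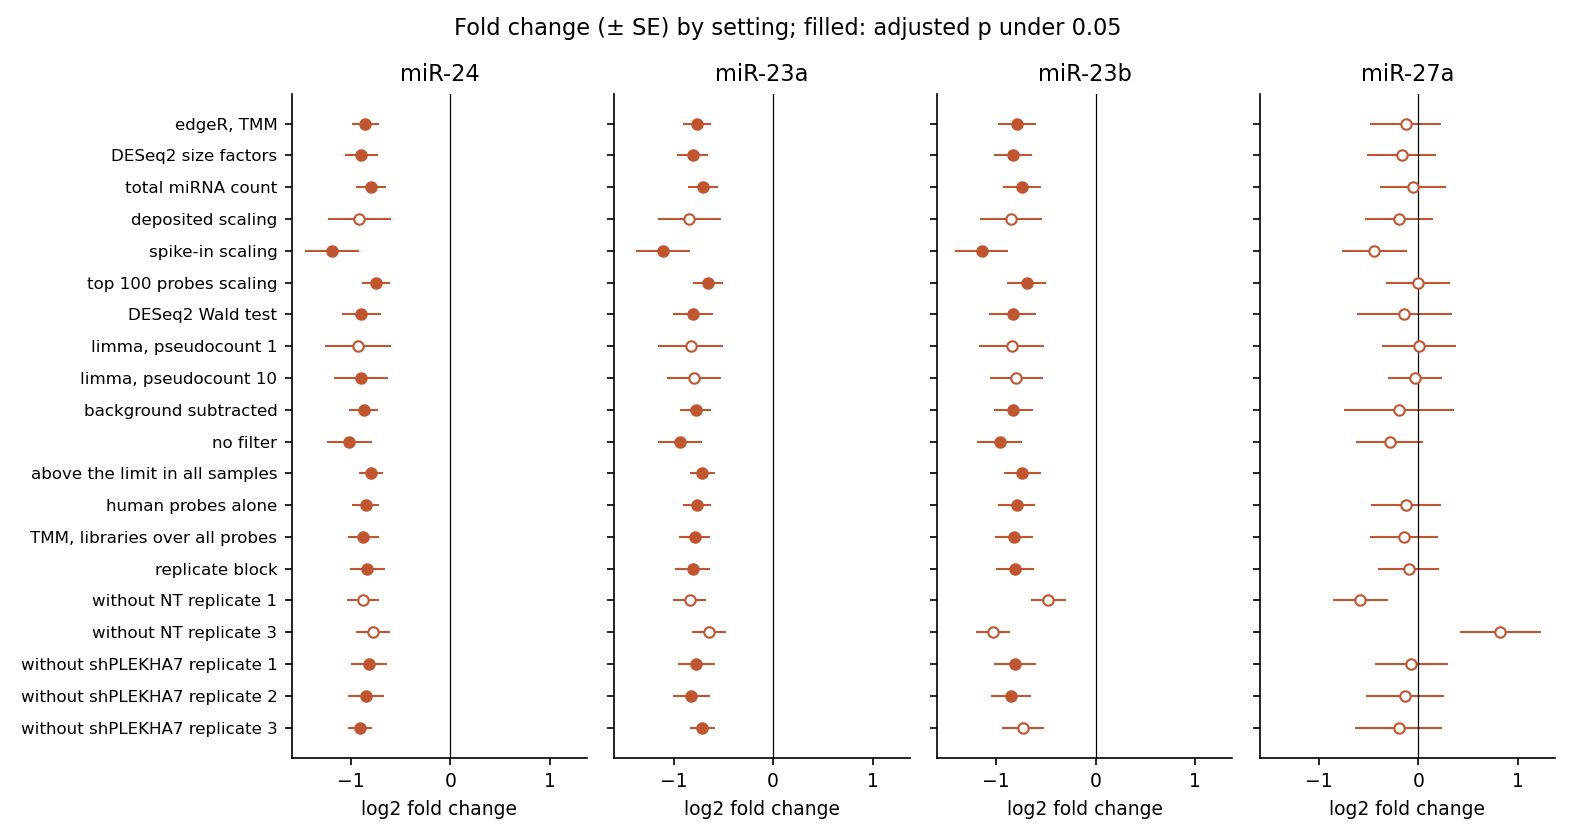
log2 fold change ± SE (x axis) of the 4 tested members under each scaling, test, filter and left-out lane (rows), filled where the adjusted p was under 0.05. miR-24, miR-23a and miR-23b stay below 0 in all rows, between -1.19 and -0.47, and miR-27a moves from -0.58 to 0.83 with the NT lane left out.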

How the data were processed

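Raw barcode counts, whole numbers for each probe in each lane, were deposited for 654 human and 80 viral miRNA probes, 8 negative and 6 positive controls and 5 housekeeping mRNAs. The authors also deposited normalized signal. For human probes 100% of its values lay within 0.02 of the count times 1 factor per lane that set the housekeeping geometric mean to 1802.2, and viral values were unscaled. Its 10 baseline and fold columns were not used. The exporting software is not given in the sources used here.

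Counts were tested with edgeR 4.0.16 (quasi-likelihood, TMM, R 4.3.3), group as the only term, on probes above the limit of detection in at least 2 lanes, with Benjamini-Hochberg adjustment over all 204. The SE was derived from the F statistic, as log2 fold change without sign divided by its square root. Ratios were compared by exact permutation over the 10 splits of lanes. edgeR was tested on simulated data. Alternatives were limma 3.58.1 on the deposited normalized signal (pseudocounts 1 and 10), DESeq2 1.42.0, other scalings and filters. A background subtraction with a floor of 1, a replicate block and left-out lanes were further alternatives. A fit with library sizes over all miRNA probes was added after the data were seen. Members and lists were chosen with earlier results of these data known. All members are named, with passenger arms, probes of like seed, miR-181c and miR-181d, and the 3 probes nearest a member. The edgeR p-values set the group difference against the spread between these lanes, estimated with information shared over the tested probes. At these depths miR-27a lies near the limit of detection.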

Additional observations from a re-analysis of the deposited data

How the results depend on the processing

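With all lanes kept, miR-24, miR-23a and miR-23b stayed below 0 in all 14 other settings, and miR-24 kept its call in 12 of them, miR-23a and miR-23b in 11 each. The deposited scaling gave miR-24 -0.92, miR-23a -0.84 and miR-23b -0.85 (0 members called, 2 probes lower, 37 with an unadjusted p under 0.05), limma with a pseudocount of 1 gave -0.93, -0.83 and -0.84 (0 members, 2 probes lower, 34 unadjusted), and limma with a pseudocount of 10 gave miR-23a -0.79 and miR-23b -0.80 (1 member, 4 probes lower), all uncalled. Both limma settings used the deposited normalized signal, so they share the housekeeping scaling of human probes with the deposited scaling. miR-27a reversed to 0.0059 under limma with a pseudocount of 1. Other counts of called probes were 29 lower (spike-ins), 11 higher (total count), 12 higher (top 100 probes), 0 higher (DESeq2, 17 unadjusted, adjusted p not given for 138 probes), 1 higher (no filter), 2 higher (above the limit in all lanes) and 13 lower with 8 higher (adjusted p under 0.1). The cause was not tested.

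With 1 lane left out, log2 fold changes ran from -0.91 to -0.78 (miR-24), -0.84 to -0.64 (miR-23a), -1.03 to -0.47 (miR-23b) and -0.58 to 0.83 (miR-27a), reversed without NT replicate 3. Members called ran from 0 to 3, probes lower from 0 to 11 and higher from 0 to 9. Without NT replicates 1 and 3 in turn 38 and 34 probes had an unadjusted p under 0.05. The ratio differences ran from -0.21 to -0.04 (miR-24 over miR-23a), -0.42 to 0.24 (miR-24 over miR-23b, reversed without NT replicate 3) and -0.36 to 0.39 (miR-23a over miR-23b, reversed without NT replicate 1).

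The replicate block, on numbers that the labels do not tie to 1 infection set, kept the 3 member calls (miR-24 -0.83, miR-23a -0.81, miR-23b -0.81) with 12 probes lower and 10 higher. Deviations of same-numbered lanes correlated at 0.02 and 0.14 over 204 probes, and those of NT replicate 1 and shPLEKHA7 replicate 2 also at 0.14. With 2 NT lanes the deviations of one are those of the other with the sign turned, so these values cannot show pairing. miR-27b was fitted only without a filter, and its fold there is not given because its count was 1 in every lane. miR-27a was not fitted among probes above the limit in all lanes.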
